A study of Mus musculus with 48 samples.

Results

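The resting Upk3b+ Wt1+ cells described here were 1112 of the 15412 barcodes of the V580_D6 sample sequenced on the 10x platform, or 7.22% (exact 95% binomial interval 6.81% to 7.64%, counting error only). They were selected on 4 transcripts. A barcode was taken if it had at least 200 detected genes, at least 1 unique molecular identifier (UMI, 1 counted transcript molecule) of both Upk3b and Wt1, and 0 UMIs of both Mki67 and Top2a. All 15412 barcodes passed the gene minimum, since the poorest held 301 genes. The working name of these cells is resting mesothelial-like cells, from the mesothelial markers Upk3b and Wt1. They are called by the rule in the text, because several defining genes of mesothelium were near 0 in them.

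Mesothelium is the flat epithelium that lines the body cavities and covers the organs within them. In the embryo it arises from the coelomic epithelium, the layer that thickens over the mesonephros to give the somatic cells of the gonad, and it can release mesenchymal cells into the organs beneath. Upk3b encodes a uroplakin membrane protein of urothelium and mesothelium. Wt1 encodes a zinc finger transcription factor that the coelomic epithelium, the early gonad and the kidney need, and that is also made by mesenchymal cells near that epithelium. Mki67 and Top2a are expressed while cells divide, with most transcript in the G2 and M phases.

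In this study mouse ESCs of the C57BL/6 strain were treated with vitamin C (Vc) together with AM580, an agonist of the retinoic acid receptor, to obtain gonadal somatic cell like cells (GSCLCs). The combination is named V580, and V580_D6 is day 6 of the treatment. The labels list 1 10x sample, so no value from these barcodes has a replicate, and no test between groups of barcodes was made. The study's text speaks of 10x sequencing in triplicate. Whether these barcodes pool several libraries is not given in the sources used here, and no label assigns them to libraries. Whole-culture RNA-seq was available for V580_D4, V580_D6, V580_D8 and V580_D10 and for E12.5_GC, cells from female C57BL/6 mouse gonads at E12.5, each with 3 libraries, and for the treatments of 24 h and 48 h with 2 libraries each. The labels do not say that libraries of a group came from separate cultures or animals, so p-values measure only the spread between these libraries, which may be technical. The V580 libraries came from female ESCs, per the study's methods, and no label names the line.

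Depth differed between classes of barcodes. The resting Upk3b+ Wt1+ barcodes held a median of 11251 UMIs (10th to 90th percentile 3778 to 17479) and 3452 genes, against 8516 UMIs and 2887 genes in the other 14300 barcodes. Cycling Upk3b+ Wt1+ barcodes, those with both markers and at least 1 UMI of Mki67 or Top2a, were 3398 in number and deeper, with a median of 16053 UMIs. Resting barcodes with Upk3b alone (342) had a median of 2865 UMIs, those with Wt1 alone (1239) had 6195 and those with neither marker (2930) had 1548. The median share of mitochondrial UMIs was 3.90% in the resting Upk3b+ Wt1+ barcodes and 3.32% in the others, and 0 of the former and 97 of the latter exceeded 40%. A barcode of few UMIs can miss a marker that its cell expressed, so absence of a marker is a statement about the barcode.

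**Figure D1:**
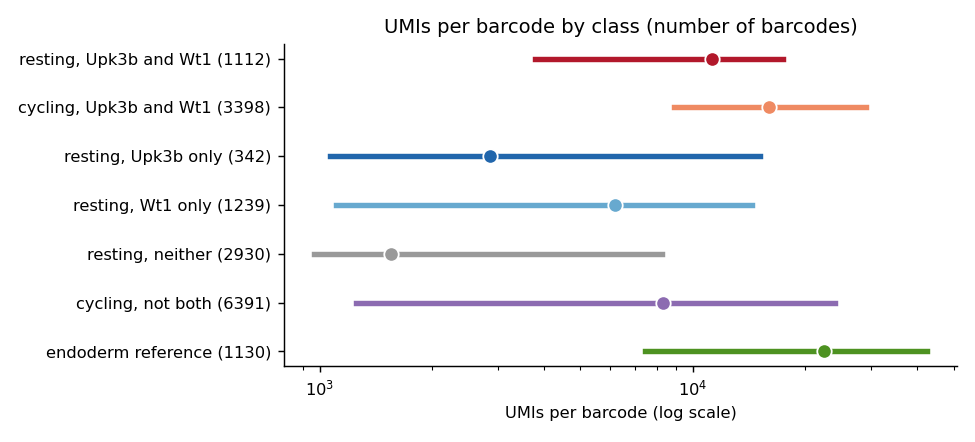
UMIs per barcode on a log axis for 7 classes of barcodes of the V580_D6 10x sample, with the number of barcodes in parentheses; points are medians and bars run from the 10th to the 90th percentile. The resting Upk3b+ Wt1+ class has a median of 11251 UMIs, below the cycling class with both markers (16053) and above the resting classes that lack 1 or both markers (2865, 6195 and 1548). The endoderm reference overlaps the other classes.

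The values of the 4 genes of the rule are a description of the choice. Upk3b (chromosome 5, 136038496 to 136046487, plus strand, GRCm38) was found in 5432 of all barcodes (35.2%) and Wt1 (chromosome 2, 105126529 to 105173616, plus strand) in 8114 (52.6%). Both were found in 4510 (29.3%), and Mki67 or Top2a in 9789 (63.5%). Among the resting Upk3b+ Wt1+ barcodes, the median was 2 UMIs of Upk3b and 3 of Wt1, with maxima of 23 and 21. A single Upk3b UMI carried the choice in 376 of them (33.8%) and a single Wt1 UMI in 219 (19.7%). Just inside the rule lay 108 barcodes with 1 UMI of each marker, whose median depth was 3902.5 UMIs. Just outside it lay 712 double-positive barcodes with 1 UMI of Mki67 and Top2a in sum (median 12646 UMIs), 565 resting barcodes with 2 or more UMIs of Wt1 and none of Upk3b, and 75 with 2 or more of Upk3b and none of Wt1.

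To set shares of barcodes with a UMI side by side, barcodes were thinned to 3700 UMIs each, which left 1002 of the resting Upk3b+ Wt1+ barcodes (110 were shallower) and 8714 of the others (5586 were shallower). Upk3b was then seen in 65.8% of the former and 24.4% of the latter, and Wt1 in 69.0% and 41.4%. As a class that should lack mesothelial transcripts, 1130 barcodes with at least 3 of the endoderm genes Sox17, Sox7, Foxa2, Dab2, Cubn and Amn served as a reference, of median depth 22538 UMIs. After thinning, Upk3b was seen in 8.24% of the reference and Wt1 in 11.9%. Of the resting Upk3b+ Wt1+ barcodes, 12 (1.08%) were also in this reference and 6 (0.540%) were among the 5% of barcodes with the most UMIs, a set that held 765 (5.35%) of the others. The part of doublets and free RNA in the class was not tested.

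Genes with higher levels in the resting Upk3b+ Wt1+ barcodes included secreted regulators, surface proteins and transcription factors. A level here is the sum of UMIs of a gene per 10000 summed UMIs of the class. Of 3340 genes with at least 50 UMIs in all and a level of at least 0.5 in the higher class, 14 (0.419%) were at least 2-fold higher than in all other barcodes, and the rule itself used these cells, so the count is a description. It moved with the barcodes compared: 6 genes passed without the 5% of barcodes with the most UMIs, and 81 when the cycling Upk3b+ Wt1+ barcodes defined below were left out of the others. The 6 were Arhgap22, Bnc2, Daam2, Gm20186, Lrrn4 and Mical2, which passed under every setting tried, and the remaining 8 of the 14 then had ratios of 1.85 to 1.996, below the limit. All 14 were among the 81. The largest ratio was that of Gm20186, a long noncoding RNA gene, with a level of 1.08 (exact 95% Poisson interval 1.02 to 1.13, counting error only) against 0.430 in the others, a ratio of 2.50 (2.36 to 2.65). Lrrn4, a leucine-rich repeat membrane protein and a known mesothelial marker, followed with 0.573 against 0.241, a ratio of 2.38 (2.20 to 2.58).

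Igfbp5, a secreted binding protein of insulin-like growth factors, had the highest level of the 14 genes, at 8.69 (8.53 to 8.85) against 4.08 in the others, a ratio of 2.13. Itm2a, an integral membrane protein, was at 3.96 against 1.92, a ratio of 2.07. Tmem108 was at 3.30 against 1.65, a ratio of 2.00 that lay on the limit. These 3 genes carried most of the UMIs of the group, since the other 11 had levels of 0.501 to 1.08.

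Among the rarer genes were 3 with known parts in signaling. Pgf, a growth factor of the VEGF family, had a level of 0.501 against 0.234, Ccn4, a matricellular protein induced by Wnt signaling, 0.758 against 0.356, and Daam2, a formin of the Wnt pathway, 0.807 against 0.381. Transcriptional regulators in the set were Bnc2, a basonuclin zinc finger protein, at 0.814 against 0.374, and Zfpm2, the cofactor of GATA4 that gonad formation requires, at 0.587 against 0.288. Crb2, a polarity protein of epithelia, was at 0.732 against 0.352, and Arhgap22, which acts on the GTPase Rac, at 0.789 against 0.350. The ratios of Mical2, an actin-oxidizing enzyme, and C1qtnf12, a secreted protein, were 2.08 and 2.02.

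The next genes by ratio stayed below the 2-fold limit. Wnt4, a ligand that directs ovarian development, had a level of 4.44 (4.32 to 4.56) against 2.30, a ratio of 1.93 (1.88 to 1.99). Kdr, the receptor of VEGF, was at 1.05 against 0.550, and Rspo3, an amplifier of Wnt signals, at 1.45 against 0.774. Kdr also marks endothelium, and it alone of the 10 genes of the endothelium list passed the level limit. In all 1112 barcodes Pecam1, Cdh5, Tie1, Emcn and Tek had 0 to 2 UMIs each, Sox18 had 13, Esam 17 and Flt1 50, whereas Egfl7 had 416, a level of 0.332 against 0.394 in the others. The list summed to a level of 1.45 in the class and 1.46 in the others, and the part of endothelial cells in these values was not tested. Smim1, Hpgd, Fras1, Adgrl3, Plce1, Frmd4b, Aebp1 and Stk26 had ratios of 1.84 to 1.99. Rspo1, another Wnt amplifier, had a ratio of 2.41 (2.19 to 2.66), but its level of 0.399 lay below the limit of 0.5 and it was not counted.

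Much of this pattern was shared with the cycling Upk3b+ Wt1+ barcodes. Of 3268 genes compared, 0 (0%) were at least 2-fold higher in the resting than in the cycling double-positive barcodes, and 111 (3.4%) were at least 2-fold lower. The largest ratios were those of Gm20186 (1.65), Mxd4 (1.65), C1qtnf12 (1.62), Pgf (1.45) and Usp29 (1.45). Mxd4 encodes an antagonist of MYC that is made as cells leave the cycle, and its level was 0.533 against 0.323 in the cycling double-positive barcodes. AY036118, Ccn4, Mical2, Dhrs3 and Gm49708 followed, with ratios of 1.43 to 1.44. Of the mesothelial genes, Lrrn4 had a ratio of 1.22 and Upk1b one of 1.19 between these classes.

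Against resting barcodes without both markers most of the 14 genes stood further apart. Of 3266 genes compared, 42 (1.29%) were at least 2-fold higher and 52 (1.59%) at least 2-fold lower in the resting Upk3b+ Wt1+ barcodes. The 42 included 13 of the 14 genes above, and C1qtnf12, at a ratio of 1.81, was the exception. Gm20186 (2.275), Pgf (2.09) and C1qtnf12 had smaller ratios here than against all other barcodes. Lrrn4 had a ratio of 4.81, Aldh1a2 3.33, Itm2a 3.22, Arhgap22 3.16 and Mical2 3.01. Levels in resting barcodes with 1 marker lay below those of the double-positive class for the 14 genes: Lrrn4 was at 0.254 with Upk3b alone and 0.149 with Wt1 alone, Igfbp5 at 4.09 and 5.13, and Itm2a at 1.40 and 1.59. The median depth of these 2 classes was lower, as given above, and its part in the ratios was not tested.

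**Figure D2:**
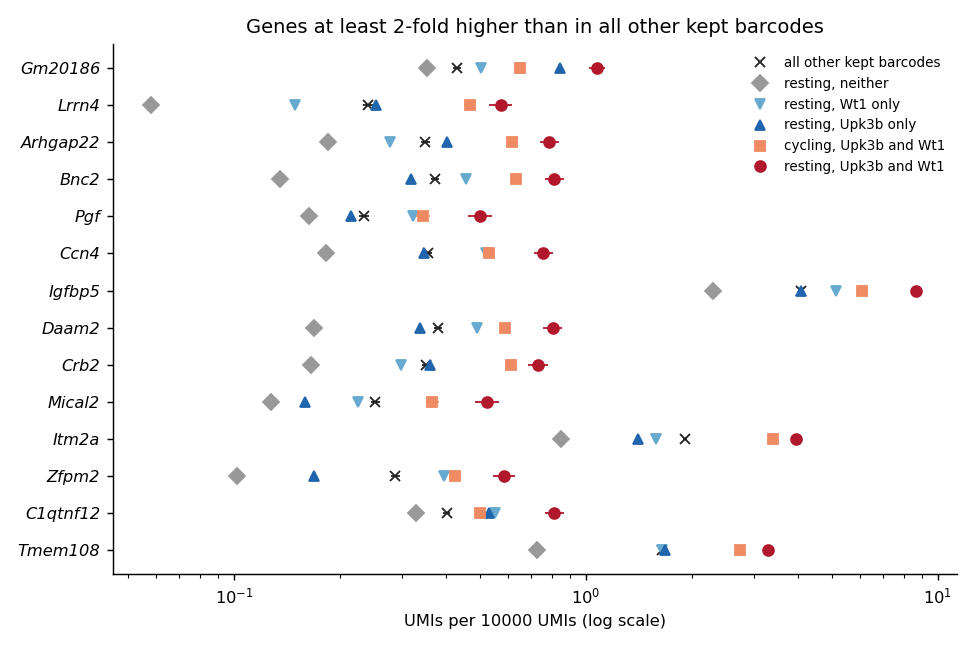
Level of each of the 14 genes in 6 classes of barcodes, as UMIs per 10000 UMIs on a log axis; bars are exact 95% Poisson intervals (counting error only) for 3 of the classes. The resting Upk3b+ Wt1+ class lies to the right of the other 5 for each gene, with the cycling double-positive class between it and all other barcodes (Lrrn4: 0.573, 0.468 and 0.241).

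The mesothelial genes that the rule did not use gave a mixed picture. Of 18 such genes on the mesothelium list, 8 passed the level limit, 2 of them (Lrrn4 and Igfbp5) were at least 2-fold higher than in all other barcodes and 0 at least 2-fold lower (0.419% and 3.71% of all genes), and the median ratio was 1.45 against 0.992 over all genes. Lrrn4 passed the level limit only through its level in the class, so this count is a description. After thinning, Lrrn4 was seen in 18.7% of the resting Upk3b+ Wt1+ barcodes, 7.76% of the others and 1.83% of the endoderm reference. Bnc1, a basonuclin of mesothelium and other epithelia, was seen in 18.2% and 8.69% of the first 2 classes, and Upk1b, a uroplakin of the tetraspanin family, in 7.78% and 3.36%. Krt19, a keratin of simple epithelia, was seen in 60.1% and 44.5%.

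Several defining genes of mature mesothelium were at or near 0. After thinning, Msln (mesothelin) was seen in 0.998% of the resting Upk3b+ Wt1+ barcodes, Cldn15 in 1.10%, Muc16 in 2.20%, Gpm6a in 0.699% and C3 in 0.20%. Msln was more frequent with Upk3b alone: 9.40% of the 149 thinned resting barcodes of that class held it, against 1.56% of the 705 with Wt1 alone. The keratin genes Krt8 and Krt18 were likewise most frequent with Upk3b alone. Krt8 was seen in 45.1% of the double-positive class, 69.1% of the class with Upk3b alone and 39.1% of that with Wt1 alone, and Krt18 in 73.9%, 85.9% and 59.4%. Resting barcodes with neither marker also exceeded the double-positive class for these genes, with Krt8 in 62.8%, Krt18 in 75.3% and Msln in 2.79%. The level of Krt8 in the resting Upk3b+ Wt1+ barcodes (2.44) was below that in all other barcodes (4.13), with a ratio of 0.592.

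**Figure D3:**
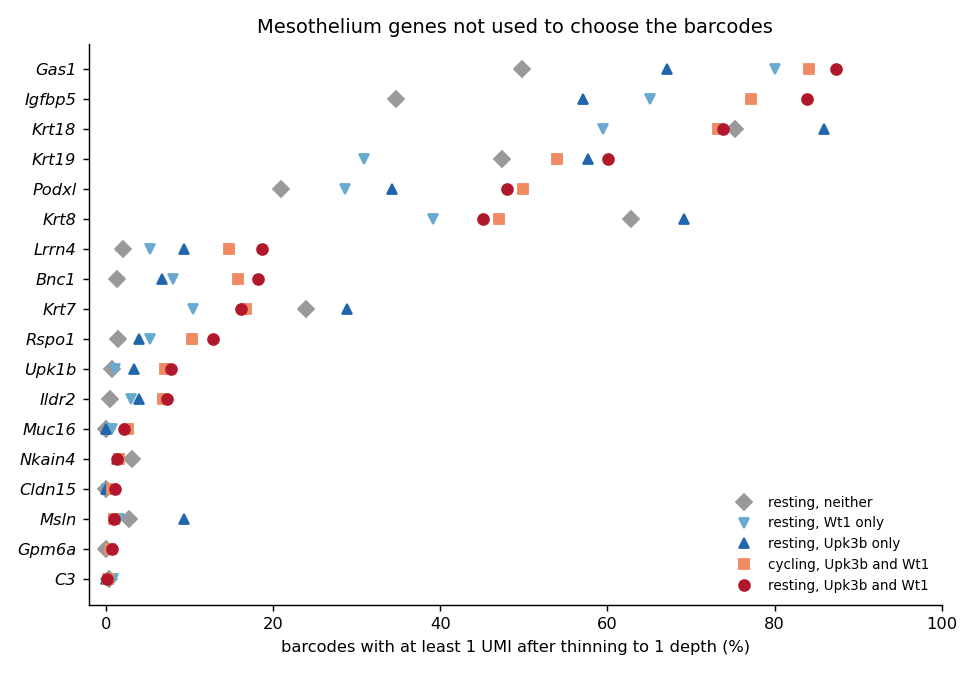
Share of barcodes with at least 1 UMI of each mesothelium gene after thinning to 3700 UMIs, in 5 classes. Lrrn4, Bnc1, Upk1b and Rspo1 are most frequent in the double-positive classes (Lrrn4 18.7% resting, 14.7% cycling), Krt8 and Msln in the resting class with Upk3b alone (69.1% and 9.40%), and Gpm6a, C3 and Cldn15 lie near 0 in each class.

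Genes of the coelomic epithelium and gonad primordium that passed the level limit were slightly higher in the class. All 9 of them, of 20 on the list, had ratios above 1 against the other barcodes, where 47.5% of all genes did. Nr5a1 and Lhx9 were among the genes that did not pass the limit. Of the 9, 1 (Zfpm2) was at least 2-fold higher, against 0.419% of all genes. Zfpm2 passed the level limit only through its level in the class, so this count is a description. The median ratio of the 9 was 1.41 (1.12 against cycling double-positive barcodes and 1.76 against resting barcodes without both markers). Aldh1a2, the enzyme that makes retinoic acid in mesoderm, was at 1.16 against 0.636 in the others, and Emx2, a homeobox factor of the urogenital epithelium, at 1.01 against 0.583. Gata6 and Nr2f2 had ratios of 1.41 and 1.37. Gata4, one of the markers with which the study followed the induction, was at 0.382 against 0.327, and it was seen after thinning in 12.8% of the class, 9.72% of the others and 24.7% of the endoderm reference. Foxl2, the transcription factor of granulosa cells, had 30 UMIs in all 1112 barcodes.

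Most genes of the Wnt and BMP lists that passed the level limit had ratios above 1, while single genes of the BMP and retinoic acid lists were far lower. All 8 Wnt pathway genes above the level limit, of 28 on the list, had ratios over 1, against 47.5% of all genes. Their median was 1.31, with 0 at least 2-fold higher, and it was 1.09 against cycling double-positive barcodes. The Wnt list summed to a level of 17.4 in the class and 11.98 in the others. It summed to 14.9 in cycling double-positive barcodes and 15.1 in resting barcodes with Wt1 alone. Besides Wnt4, Sfrp1, a secreted Wnt antagonist, was at 4.87 against 3.39. For the BMP and TGF-beta pathway, 8 of the 9 genes above the limit, of 20 on the list, had ratios over 1, with a median of 1.16. Against cycling double-positive barcodes the median was 1.10 over 8 genes. The BMP targets Id1, Id2 and Id3 had ratios of 1.46, 1.52 and 1.31 to all other barcodes. Fst, the activin antagonist on the same list, was the exception at 0.0894 against 0.603. Of the retinoic acid pathway, Aldh1a2 and Dhrs3 had ratios of 1.83 and 1.32, whereas Rbp4 and Cyp26a1, the retinoic acid degrading enzyme, had 0.144 and 0.192, past the 2-fold limit that 3.71% of all genes passed in this direction. The 6 HOX genes above the limit (Hoxa4, Hoxa5, Hoxb2, Hoxb4, Hoxc4 and Hoxc5) had ratios of 1.10 to 1.56.

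Markers of mesenchyme were present, and those of neurons and blood cells were rare. The 10 neuronal genes summed to a level of 0.254 in the class and 0.623 in the others, and the blood and macrophage genes to 0.0567 and 0.115. The 18 interstitial and mesenchymal genes summed to a level of 21.5 in the class and 24.8 in all other barcodes. Acta2, the smooth muscle actin, was at 3.10 against 4.70 in the others and 9.33 in resting barcodes with Wt1 alone, and Col1a1 at 1.04, 1.46 and 2.72. Of the epithelial junction list, Cldn7 (0.275 against 1.26) was at least 2-fold lower and the median of 7 genes was 0.840. Epcam was at 1.01 against 1.86, and it reached 3.33 in resting barcodes with Upk3b alone.

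Cell cycle genes led the lower levels. At least 2-fold lower than in all other barcodes were 124 of 3340 genes (3.71%), which the rule in part fixed by requiring 0 UMIs of Mki67 and Top2a. All 19 G2 and M phase genes above the limit were among them, with a median ratio of 0.127. Hmmr had the smallest ratio at 0.0553 (0.0687 against 1.24), and Aspm, Prc1, Nusap1, Kif11, Cenpf, Sgo2a and Cenpe had ratios of 0.0814 to 0.101. Transcripts of S phase were closer to the others: 3 of 15 were at least 2-fold lower, the median ratio was 0.679, and the replication helicase genes Mcm2 and Mcm6 had ratios of 0.937 and 0.925. Against resting barcodes without both markers, the median ratio of 10 S phase genes was 1.17, and that of 6 G2 and M phase genes 0.535. The absence of 2 transcripts does not place a cell outside the cycle. Cell cycle inhibitors were not higher as a list, with a median ratio of 1.02 over 6 genes and Cdkn1a at 2.27 against 2.19. Against resting barcodes without both markers, their median ratio was 0.717 over 7 genes. Of these, 0 were at least 2-fold higher and 2 at least 2-fold lower, where 1.29% and 1.59% of all genes were.

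Lower levels were also found on the lists of extraembryonic endoderm and placenta-associated genes. Of 8 extraembryonic endoderm genes 4 were at least 2-fold lower, against 3.71% of all genes, and 0 had a ratio above 1, against 47.5%, with a median ratio of 0.465. Col4a1, a collagen of basement membrane, was at 2.27 against 7.97, Lama1 at 0.250 against 1.27 and Rbp4 at 0.203 against 1.40. Of 8 placenta-associated genes 5 were at least 2-fold lower, namely Rhox6, Rhox9, Sct, Cited1 and S100g, with ratios of 0.0879 to 0.186. The list was chosen with earlier results of these data known, so this count is a description. Pitx1, a homeobox factor, had a ratio of 0.0953. Rhox9 stayed as far apart from resting barcodes without both markers (ratio 0.0817). Both lists were also low in cycling double-positive barcodes. The endoderm list summed to a level of 23.3 in the class, 28.7 in cycling double-positive barcodes and 44.7 in the others. For the placenta-associated list the sums were 4.40, 5.54 and 9.37.

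**Figure D4:**
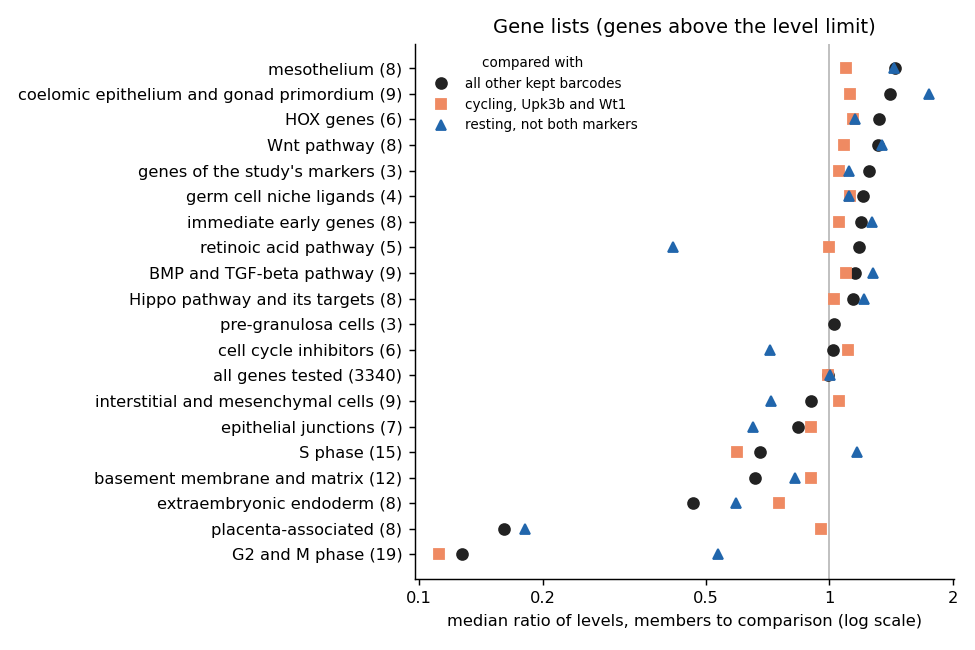
Median ratio of the level in the resting Upk3b+ Wt1+ barcodes to that in 3 comparison classes, on a log axis, for each list with at least 3 genes above the level limit (their number in parentheses, against all other barcodes); the gray line marks a ratio of 1. Mesothelium and gonad primordium lists lie to the right (1.45 and 1.41) and the G2 and M phase list to the left (0.127) of all genes (0.992).

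Within the class, the genes with the largest ratios of variance to mean included contractile genes and a few long noncoding RNAs. On thinned counts of 1002 barcodes, the median ratio of variance to mean over 5121 genes was 1.05, close to that of counting error. It was 32.2 for Malat1 and 11.8 for Gm42418, a gene model that overlaps a ribosomal RNA repeat. Next were Actc1 (7.53), Acta2 (7.03), Ptn (5.99), Tagln (5.52), Pbld1 (5.47), Meg3 (4.84), Peg3 (4.39) and 1700120C14Rik (4.25). The ratio was not adjusted for the level of a gene. Malat1, Peg3, Gm42418 and Meg3 had high means of 44.5, 11.6, 8.91 and 8.10 thinned UMIs, and the part of level in their rank was not tested. Actc1, cardiac actin, was seen in 4.29% of barcodes with up to 19 UMIs, and Acta2 in 34.4% with up to 27. Across these barcodes of 1 10x sample, Tagln and Acta2, both of contractile cells, had a Pearson correlation of 0.50 on log thinned counts. That of Meg3 and Malat1 was 0.37. Ptn, a growth factor that binds heparin, was seen in 73.0% and its 10% of richest barcodes held 10 or more UMIs.

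The whole-culture libraries, which the rule did not use, gave the time course of the markers. Upk3b was measured at 22.5, 22.6 and 22.4 FPKM (fragments scaled to transcript length and library size) in the V580_D4 libraries, at 59.6, 67.8 and 61.6 at V580_D6, at 99.9, 103 and 95.1 at V580_D8, and at 103, 94.6 and 100.5 at V580_D10. Groups of days 4, 6 and 8 did not overlap, and those of days 8 and 10 did. Upk3b rose between days 4 and 6 by a log2 fold change of 1.45 (SE 0.0722, limma adjusted p = 9.94e-10). In the earlier libraries it was at 0.763 and 0.811 FPKM after 24 h and 0.184 and 0.124 after 48 h of V580. In whole cultures, fewer cells of a type and less RNA per cell cannot be told apart.

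Wt1 was already present early. It was at 6.30 and 6.34 FPKM after 24 h and 14.3 and 14.2 after 48 h of V580, and at 9.86 and 10.3 in the 48 h controls. It then measured 23.7, 23.0 and 21.6 FPKM at V580_D4, 42.9, 47.4 and 45.1 at V580_D6, 58.9, 60.6 and 60.5 at V580_D8 and 52.0, 53.4 and 51.7 at V580_D10. The difference between days 6 and 4 was 0.95 on the log2 scale (SE 0.0873, limma adjusted p = 5.61e-07), just under the 2-fold limit set for a call. E12.5_GC cells had 67.1, 64.5 and 86.0 FPKM of Wt1, above all V580 days, and 42.5, 47.4 and 39.4 of Upk3b, between V580_D4 and V580_D6.

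Of the 14 genes, 12 were in the FPKM table, with Ccn4 under its older symbol Wisp1, and Gm20186 and C1qtnf12 had no entry. From day 4 to day 6, 7 of the 12 rose by at least 2-fold at a limma adjusted p below 0.05 and 0 fell, where 3.41% of 11512 genes rose and 1.67% fell. All 12 had a positive log2 fold change, as did 48.6% of all genes, with a median of 1.31 against -0.01 over all genes. The 12 were chosen by their level in day 6 barcodes, a limit that the 11512 genes did not have to meet. Such a choice can favor day 6, so these counts are a description, and its part in them was not tested. The same holds for the other comparisons that include V580_D6. Itm2a measured 12.57, 12.49 and 13.20 FPKM at V580_D4 and 141.8, 159.3 and 145.5 at V580_D6, a log2 fold change of 3.44 (SE 0.0877, limma adjusted p = 9.92e-13). Wisp1 rose from 1.70, 1.69 and 1.51 to 9.07, 9.47 and 9.34 FPKM, and Pgf from 1.27, 1.49 and 1.44 to 7.23, 7.81 and 7.85. Zfpm2, Crb2, Bnc2 and Mical2 were the other genes that rose, with log2 fold changes of 1.60, 1.45, 1.37 and 1.25. Libraries of the 2 days did not overlap for any of these 7 genes, which the call itself had selected. The share of all genes without overlap was not counted, so this adds nothing to the call.

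Lrrn4, Igfbp5, Arhgap22, Daam2 and Tmem108 did not reach the limit. Lrrn4 was at 17.0, 15.9 and 16.9 FPKM at V580_D4 and 27.0, 30.9 and 27.9 at V580_D6, with a log2 fold change of 0.75 (SE 0.134, limma adjusted p = 0.000363). At V580_D8 it was at 23.6, 25.2 and 22.9 FPKM, and Lrrn4, Pgf and Crb2 were the 3 of the 12 genes with a lower mean on day 8 than on day 6. Igfbp5 was at 116.5, 105.1 and 112 FPKM at V580_D4, and at 173.6, 190.6 and 176.5 at V580_D6. Its mean was 354.4 ± 20.5 FPKM (SD, n = 3) at V580_D8 and 487.5 ± 15.4 at V580_D10.

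Between days 6 and 8 the same 12 genes split. Of them 3 rose, namely Mical2 (log2 fold change 1.13), Zfpm2 (1.13) and Itm2a (1.01), and 0 fell, against 2.29% and 0.252% of all genes, with a median of 0.65. Pgf differed in the other direction, from 7.63 ± 0.349 to 3.93 ± 0.0885 FPKM (SD, n = 3), a log2 fold change of -0.81 that missed the 2-fold limit. From day 8 to day 10 limma called 0 of the 12 in either direction, where 0.973% of all genes rose and 0.321% fell. Without the fold limit, 3 were higher and 4 lower at an adjusted p below 0.05 (19.5% and 15% of all genes), and 8 had an unadjusted p below 0.05. Lrrn4 was among the 4, at 16.7, 15.6 and 15.9 FPKM on day 10.

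**Figure D5:**
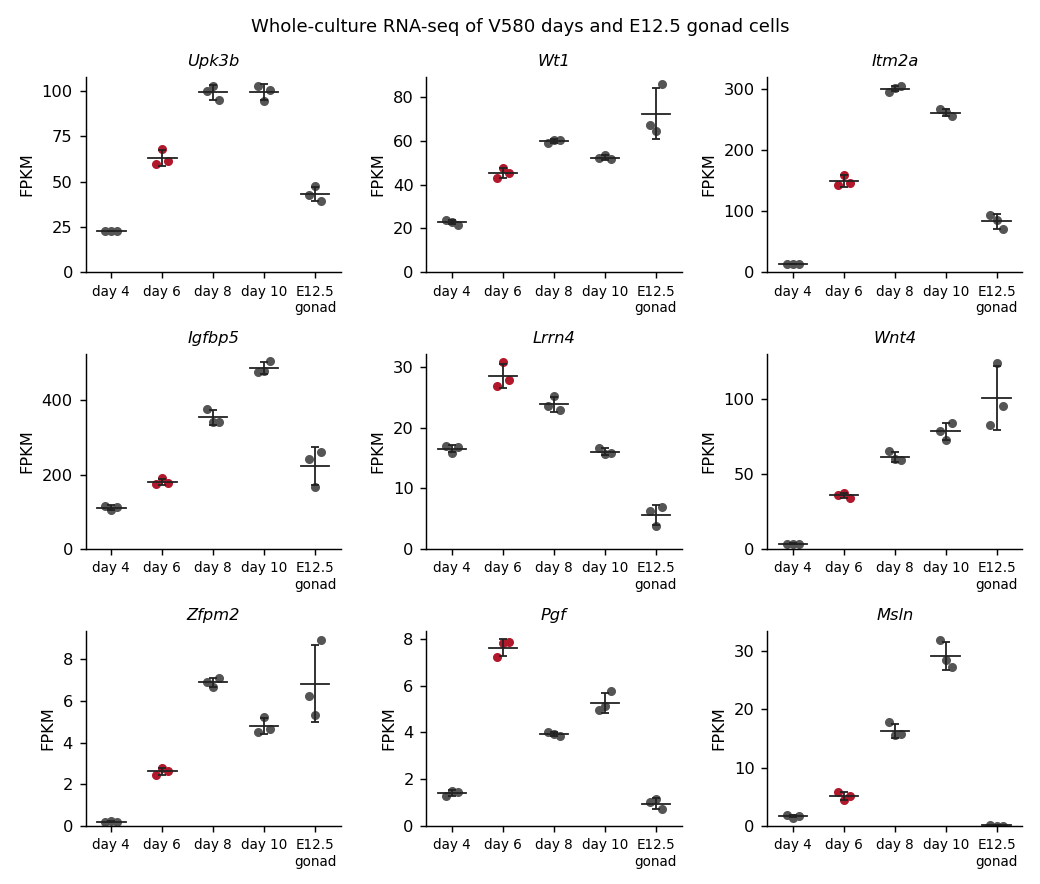
FPKM of 9 genes in the 3 libraries of each V580 day and of E12.5_GC; points are libraries (V580_D6 in red), lines are means and bars are SD, on linear axes from 0. Itm2a, Igfbp5, Wnt4 and Msln are higher on day 8 than on day 6 (Msln means 5.03 and 16.3), Lrrn4 and Pgf are highest on day 6 among the V580 days, and Lrrn4, Pgf and Msln are lowest in E12.5_GC.

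Some mesothelium genes rose up to day 8 in the same libraries. Of the 19 genes of that list tested, Upk3b and Wt1 included, 5 rose and 0 fell from day 4 to day 6, where 3.41% of all genes rose and 1.67% fell, and 4 rose and 0 fell from day 6 to day 8, where 2.29% rose and 0.252% fell. From day 8 to day 10, 1 rose (C3) and 0 fell, where 0.973% rose and 0.321% fell, and the median log2 fold change was -0.03. Krt8 and Krt18 were lower on day 6 than on day 4 without reaching the 2-fold limit, by log2 fold changes of -0.70 and -0.76 (limma adjusted p = 0.000506 and 0.000136). Upk1b was at 0.778, 0.600 and 0.459 FPKM at V580_D4, 9.05, 12.1 and 9.81 at V580_D6 and 23.4, 26.3 and 24.3 at V580_D8. Bnc1 rose from 3.89, 3.57 and 3.49 to 16.8, 19.2 and 18.0 FPKM between days 4 and 6. Msln, seen in few of the day 6 barcodes, was at 5.71, 4.34 and 5.04 FPKM at V580_D6, 17.7, 15.6 and 15.7 at V580_D8 and 31.9, 28.4 and 27.3 at V580_D10. Gpm6a and Cldn15 rose between days 6 and 8, with log2 fold changes of 1.14 and 1.08.

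Of the coelomic epithelium and gonad primordium list, 8 of 15 genes rose and 0 fell from day 4 to day 6 (3.41% and 1.67% of all genes), among them Aldh1a2 (10.5, 10.4 and 10.6 to 64.5, 75.4 and 70.0 FPKM) and Emx2 (log2 fold change 2.56). From day 6 to day 8, 1 rose (Zfpm2) and 0 fell, against 2.29% and 0.252% of all genes. The mean of Aldh1a2 was then 46.9 FPKM at V580_D8 and 28.0 at V580_D10. Of the Wnt list, 8 of 24 genes rose and 1 (Fzd8) fell from day 4 to day 6, against the same 3.41% and 1.67%, with Wnt4 at 3.45, 3.25 and 3.54 FPKM on day 4 and 35.7, 37.0 and 34.1 on day 6. Of the G2 and M phase list, 0 of 20 genes passed the 2-fold limit, but 18 were lower on day 6 than on day 4 at an adjusted p below 0.05 without it and 20 on day 8 than on day 6 (23% and 20.9% of all genes), with medians of -0.46 and -0.51 on the log2 scale (limma).

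Among the 124 genes with lower levels in the class, 108 were tested in the whole cultures. From day 4 to day 6, 4 rose and 8 fell by at least 2-fold, with a median log2 fold change of -0.32. Over all genes 3.41% rose and 1.67% fell, so the share that rose was near the background and is no result about these genes. The 4 were S100g (4.43), Pitx1 (3.10), Cited1 (2.31) and Ctsh (1.38), and Dppa5a, a pluripotency gene, fell by 4.57 on the log2 scale. Between days 6 and 8, 3 rose and 0 fell, again near the 2.29% and 0.252% of all genes, with a median of -0.37. Between days 8 and 10, 2 rose and 1 fell, against 0.973% and 0.321%. The V580 comparisons share the libraries of days 6 and 8.

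Compared with E12.5_GC, the V580_D6 cultures held more of 6 of the 12 genes and less of 1 at the same limits, where 7.06% of all genes were higher and 8.11% lower. Lrrn4 was at 6.30, 3.79 and 6.89 FPKM in E12.5_GC, a log2 fold change of 2.18 for V580_D6 minus E12.5_GC (SE 0.134, limma adjusted p = 1.93e-09). Pgf, Tmem108, Crb2, Wisp1 and Arhgap22 were the other genes that were higher, and Zfpm2 was lower by a log2 fold change of -1.09. On the mesothelium list 8 of 19 genes were higher, among them Krt19, Krt18 and Msln with log2 fold changes of 3.68, 2.98 and 2.50, and 1 was lower, Rspo1, at 33.2, 44.0 and 45.9 FPKM in E12.5_GC and 3.90, 4.71 and 4.07 in V580_D6. On the gonad primordium list 4 of 15 were higher and 8 lower. Nr5a1, the regulator of steroidogenic and gonadal cells, was at 71.7, 95.1 and 67.8 FPKM in E12.5_GC and at most 0.0828 in the V580_D6 libraries. Gata4 was at 135, 147.3 and 148.3 FPKM in E12.5_GC and at 17.6, 16.0 and 17.5 in V580_D6. Of the 108 genes with lower levels in the class, 48 were higher and 2 lower in V580_D6.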

How the data were processed

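The authors deposited UMI counts per gene and barcode for 1 10x sample of V580_D6 cells, made with Cell Ranger on mm10, and FPKM values per gene symbol for whole-culture libraries. The tool that made the FPKM values is not given in the sources used here, and no depth can be read from them. 8 FPKM columns were not used, because their names match no sample. The study's methods speak of removing SSEA1+ cells from the cultures, and whether this was done for the 10x sample is not given in the sources used here.

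The members and the gene lists were chosen with earlier results of these data known. Barcodes were classed by the counts of Upk3b, Wt1, Mki67 and Top2a alone, without clustering, and no doublet caller was run. Of 32285 genes, 127 have no symbol. UMIs were summed per class and given per 10000 with exact 95% Poisson intervals. Ratios have exact conditional intervals. Shares were computed after thinning barcodes to 3700 UMIs with a fixed seed. Named genes were the 25 with the largest and the 10 with the smallest ratio to all other barcodes, the 10 at either end against cycling double-positive barcodes, the 10 of largest variance to mean, and genes of the fixed lists; other genes named, such as those that rose or fell in the whole cultures, were chosen after their values were seen. Some genes of the lists are not reported here by name. Positions are from GENCODE vM21 on GRCm38.

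For the whole cultures, 1 model of 15 libraries was fitted to log2 of FPKM plus 1 with the trended limma method (limma 3.58.1, R 4.3.3), for 11512 of 13682 genes with at least 1 FPKM in at least 3 libraries. Fold changes on this scale understate the change of low genes. A call needed a Benjamini-Hochberg adjusted p below 0.05 over all genes and a 2-fold change. Scripts used Python 3.11.15, numpy 2.4.6, scipy 1.17.1, pandas 2.3.3 and matplotlib 3.10.9, and were tested on simulated data. Alternatives covered barcode filters, comparison classes, pseudocount, filter, replicate block and left-out libraries.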

Additional observations from a re-analysis of the deposited data

How the results depend on the processing

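The number of resting Upk3b+ Wt1+ barcodes was 1070 to 1112 under other limits on genes, mitochondrial UMIs or total UMIs, and 625 with at least 2 UMIs of each marker. The count of 14 genes at least 2-fold higher became 22 with at least 2 UMIs of each marker (13 of the 14 among them), 6 without the 5% of barcodes with the most UMIs, 42 against other resting barcodes, 270 with no limit on the level, and, in a comparison added after the data were seen, 81 when the cycling double-positive barcodes were left out of the others. The count of 124 lower genes became 52 against other resting barcodes and 1231 with no limit on the level. Of 350 ratios of single genes under these settings, 238 moved by less than their counting error, 112 by more, and 0 turned direction; their causes were not tested.

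In the whole cultures the number of the 12 genes called was 7 for days 6 and 4, 3 for days 8 and 6, 0 for days 10 and 8, and 7 for V580_D6 against E12.5_GC. Without the fold threshold it was 12, 10, 7 and 10. Leaving out each library gave 7 to 7, 2 to 4, 0 to 0 and 5 to 7. With the replicate block it was 7, 3, 0 and 7. Deviations of same-numbered libraries from their group means correlated at -0.272 to 0.318, and in no comparison did all pairs exceed 0.1. For days 10 and 8 the values were 0.276, 0.318 and -0.272. With 3 libraries in each group, they cannot show whether same-numbered libraries shared a culture or batch. The main model treated the libraries as unpaired. Upk3b on day 10 minus day 8, at 0.000868 on the log2 scale, turned to -0.025 without V580_D10 replicate 1, -0.0075 without V580_D10 replicate 3 and -0.030 without V580_D8 replicate 3, none of them called, and was at most 0.035 with other libraries left out. The limits are 1 10x sample of barcodes without a replicate, markers seen at few UMIs, and FPKM without depth.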

Other observations

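Genes outside the comparisons above gave further values for the resting Upk3b+ Wt1+ barcodes, all from 1 library and with no test. Cd63, whose protein the study used to sort GSCLCs, had a level of 3.89 UMIs per 10000 in the class, 3.71 in cycling double-positive barcodes and 4.66 in all other barcodes, and after thinning it was seen in 74.5%, against 75.2% of the others and 87.9% of the endoderm reference. Fgf9, a growth factor of mesothelium and gonad, was at 0.436 in the class against 0.221 in the others, with a ratio of 3.05 to resting barcodes without both markers. Its level lay below the limit of 0.5, and it was not counted above. The matrix genes Fbln2 (1.90 against 1.07) and Npnt (0.738 against 0.457) and the cadherin gene Cdh2 (0.772 against 0.460) had higher levels than in the others, while the median ratio of the 12 basement membrane and matrix genes compared, of 18 on the list, was 0.658. Levels of Fgf9, Fbln2, Npnt and Cdh2 in cycling double-positive barcodes are not reported here, so these values do not set the resting class apart from them. Of 8 genes of the Hippo pathway 7 had ratios above 1, against 47.5% of all genes, with a median of 1.14, and of 8 immediate early genes 7 did, with a median of 1.20 and Jun at 5.33 against 3.70.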
